A study of Mus musculus with 36 samples.

Results

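Preneoplastic lesions of the mouse colon were compared between mast cell-deficient sash mice and wild-type mice. The 6 libraries labelled as preneoplastic lesions, 3 from each genotype, were taken from a series of 36 samples, 25 of which share 1 count table. Wild-type mice were C57BL/6, and sash mice carried the Kit W-sash allele on that strain, labelled C57BL/6 (cKitw-sh). All 6 samples came from mice aged 14 weeks that had received 3 injections of azoxymethane (AOM), which induces tumours in the rodent colon, over 3 weeks and were killed 3 weeks later. A further wild-type group called AOM only (n = 3) carries the same labelled strain, age and AOM schedule but is the control group of the cromolyn treatments, with libraries of its own. Tumours of wild-type (n = 5) and sash mice (n = 5) aged 32 weeks, taken 18 weeks after 6 AOM injections, gave the genotype difference at a later stage. The labels do not say whether 1 library is 1 mouse, so the p-values reflect only how far these libraries differ, and part of that may be technical.

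Mast cells are tissue-resident cells that store proteases, histamine and cytokines in granules and depend on the receptor tyrosine kinase KIT for survival. The W-sash allele is a rearrangement upstream of Kit that leaves the coding sequence intact and removes KIT from the mast cell lineage. Sash mice are therefore a model of mast cell absence in which regulation of Kit outside mast cells can also be altered. In the colon, mast cells lie in the mucosa and submucosa next to isolated lymphoid follicles, which are clusters of B cells held together by the chemokine CXCL13. Viral and bacterial products induce interferons there, and these switch on interferon-stimulated genes in epithelium and immune cells.

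The libraries were made with a targeted panel that amplifies a short stretch of each of 988 immune and cancer transcripts. Total counts ranged from 616745 to 1149069 in the wild-type lesions, from 621846 to 816883 in the sash lesions and from 470661 to 544886 for AOM only. Each lesion library detected between 886 and 914 genes. Rpl13a, a ribosomal protein gene, took 11.4%, 8.23% and 5.32% of the counts in wild-type lesions 1 to 3 and 11.2%, 9.60% and 4.77% in sash lesions 1 to 3, so its share followed the replicate number and not the genotype. Levels below are CPM, counts scaled to a common library total with TMM factors. Differences are log2 values, sash minus wild type, with the standard error (SE) and the adjusted p of edgeR's quasi-likelihood test.

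Of 775 genes tested, 22 passed at an adjusted p below 0.05 (2.84%), with 4 higher (0.516%) and 18 lower (2.32%) in the sash lesions. Interferon-stimulated genes, B cell genes and 2 epithelial genes made up most of the lower ones. The 4 higher genes were Cxcl2, Cxcl5, Nfkbia and Edn1, with Cxcl2 near the minimum count. The median difference of all tested genes was 0.05. In all 22 the 3 sash libraries lay beyond the 3 wild-type libraries, an arrangement also seen in 24.3% of all tested genes. The count depended on single libraries: no gene passed without sash lesion 2 (106 genes had an unadjusted p below 0.05, and the smallest adjusted p was 0.0537), 13 passed without sash lesion 3 and 68 without wild-type lesion 3. With each of the 6 libraries left out in turn, Kit, Oas3, Irf7, Bst2, Lgals9, Sp100, H2-Eb2, Cxcl13 and Tmigd1 passed in 5 of 6 fits, and B2m, Ddx58 and Emp1 in 1. With the replicate number as a block 84 genes passed, 25 higher and 59 lower, and these included all 22. What a replicate number marks is not labelled, so the block assumes a pairing that was not established.

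**Figure D1:**
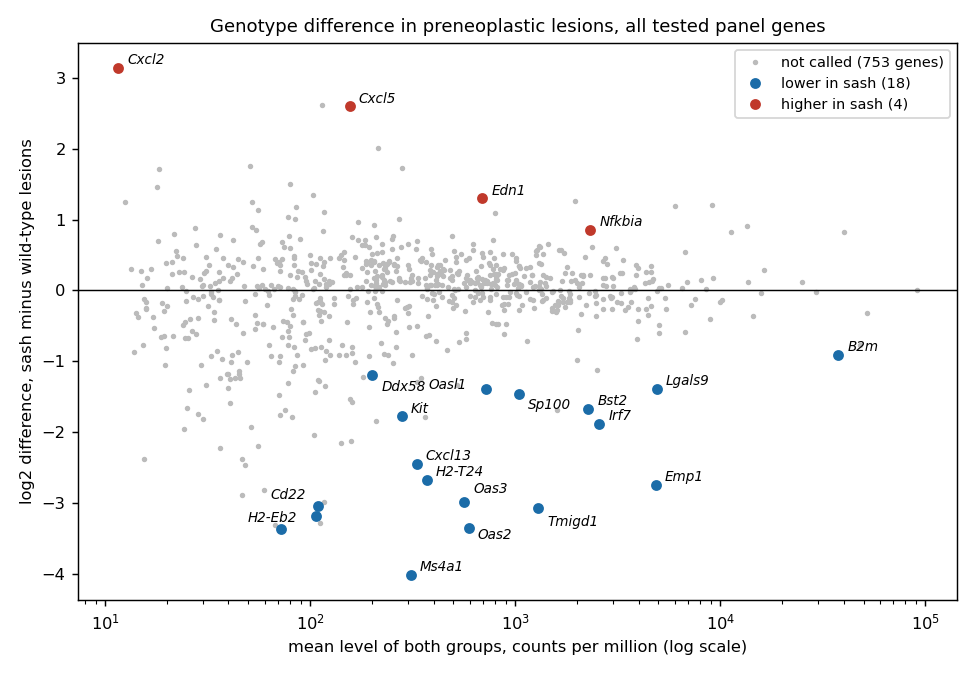
Each point is 1 of the 775 tested genes, with its mean level in CPM on a log axis and its log2 difference, sash minus wild-type lesions. The 18 genes lower in sash reach −4.02 for Ms4a1, and the 4 higher ones reach 3.14 for Cxcl2.

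Kit, the gene at the mutated locus, was lower in the sash lesions. Wild-type lesions 1 to 3 had 334, 509 and 452 CPM of Kit, sash lesions 1 to 3 had 125, 114 and 143 CPM, and the AOM-only libraries had 315, 348 and 418 CPM. Every sash library was below all 6 wild-type libraries, and the difference was −1.78 (SE 0.26, adjusted p = 0.0144). The panel does not show which cells carried the remaining Kit.

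Transcripts of mast cell granules were scarce in every lesion and are given as raw counts. Cpa3, the mast cell carboxypeptidase, had 6, 1 and 24 counts in wild-type lesions 1 to 3 and 0 in each sash lesion. By pooled counts it was 9.43-fold lower in sash when a floor of 3 counts over the group stood in for 0. The exact 95% interval of the fold began at 7.22 (counting error only). Wild-type lesion 3 held 24 of the 31 counts, and without it the floor gave 3.98-fold. Tpsb2, a tryptase gene, had 8, 17 and 8 counts against 4, 7 and 1, a ratio of 2.51 (exact 95% interval 1.26 to 5.33, counting error only). Ms4a2, the beta chain of the high-affinity IgE receptor, had 6 counts in wild type and 0 in sash. Hdc, the histamine-forming enzyme, had 22 counts in wild type and 21 in sash, and Tpsab1 had none in either group. Of 10 mast cell genes on the panel 5 were tested, and Kit was the only one that passed between the lesions. In bulk RNA of this kind, fewer cells of a type and less RNA per cell cannot be told apart.

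Promoter sequences of genes from the groups that moved are shown because they carry the binding letters of interferon-activated factors and of NF-kappaB. They were taken from RefSeq promoter windows on GRCm38.p6, which gave an entry for 749 of the 988 panel genes. Each line is the 150 bases before the start of transcription, 5′ to 3′ on the gene's strand. In the first 3 lines capitals mark the core of the interferon-stimulated response element, the letters GAAA, any 2 bases and GAAA again, on either strand, with overlapping matches merged.
Oas3 (chr5:120777660-120777809, minus strand): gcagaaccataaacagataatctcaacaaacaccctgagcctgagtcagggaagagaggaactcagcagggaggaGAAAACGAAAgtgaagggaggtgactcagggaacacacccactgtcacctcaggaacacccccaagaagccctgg
Bst2 (chr8:71537473-71537622, minus strand): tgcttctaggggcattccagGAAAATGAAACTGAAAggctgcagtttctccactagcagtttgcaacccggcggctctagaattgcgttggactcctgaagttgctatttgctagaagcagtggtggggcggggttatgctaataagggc
B2m (chr2:122147537-122147686, plus strand): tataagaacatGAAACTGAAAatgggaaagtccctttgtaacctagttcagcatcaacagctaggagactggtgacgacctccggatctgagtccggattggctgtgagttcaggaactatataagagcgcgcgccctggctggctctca
In the next lines capitals mark matches to the NF-kappaB consensus on either strand.
Cxcl2 (chr5:90903749-90903898, plus strand): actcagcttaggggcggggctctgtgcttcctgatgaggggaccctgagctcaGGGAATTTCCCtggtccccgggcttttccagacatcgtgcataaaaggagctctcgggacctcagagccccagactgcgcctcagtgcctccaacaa
Nfkbia (chr12:55492648-55492797, minus strand): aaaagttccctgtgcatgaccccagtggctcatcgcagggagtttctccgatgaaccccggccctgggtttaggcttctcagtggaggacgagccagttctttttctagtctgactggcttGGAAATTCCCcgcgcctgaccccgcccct

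Over windows from 250 bases before to 50 after the start, the response element core was present in 6 of the 14 lower genes that had an entry (42.9%): Oas3, Bst2, Lgals9, Tmigd1, B2m and Ddx58. The same letters occurred in 7.08% of the 579 tested genes with an entry and in 3.99% of all 27025 genes of the table. They also occurred in 7 of the 14 tested interferon-stimulated effector genes with an entry (50%), some of which did not pass. The core is therefore not particular to the genes that fell. The NF-kappaB consensus was present in Cxcl2 and Nfkbia among the 3 higher genes with an entry, and also in Oas3, Bst2, Oasl1 and B2m among the lower ones. It occurred in 19.2% of the tested genes and 9.55% of all genes. Edn1, which was higher, held the response element core and not the NF-kappaB consensus. These matches describe letters in the reference genome and not measured binding.

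Interferon-stimulated genes formed the most numerous group among the lower genes. Of 20 effector genes of this kind that were tested, 7 fell, none rose and 19 had a difference below 0, with a median of −1.20 against 0.05 for all genes. Among all 775 tested genes 18 fell and 350 had a difference below 0. Oas3, which senses double-stranded RNA and makes the messenger that activates RNase L, had 1095, 1265 and 634 CPM in the wild-type lesions and 170, 129 and 88.4 CPM in the sash lesions. Its difference was −2.99 (SE 0.34, adjusted p = 0.0102). Oas2, an enzyme of the same family, stood at 1393, 1451 and 388 CPM against 136, 139 and 53.1 CPM, a difference of −3.36 (SE 0.56, adjusted p = 0.0159). For both genes wild-type lesion 3 and sash lesion 3 were the lowest of their group, and the groups did not overlap. Across the 20 genes, wild-type lesion 3 was the lowest wild-type library in 15 and sash lesion 3 the lowest sash library in 15. Over all 775 tested genes this was so in 288 and 356.

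Irf7, the transcription factor that amplifies type I interferon production, had 4421, 4902 and 2788 CPM in wild-type lesions and 986, 1171 and 1184 CPM in sash lesions. The difference was −1.89 (SE 0.25, adjusted p = 0.0144). Bst2 (tetherin), which holds budding virus at the cell surface, stood at 4518, 3145 and 2675 CPM against 976, 1117 and 1214 CPM, a difference of −1.67 (SE 0.25, adjusted p = 0.0144). Lgals9 (galectin-9), a ligand of the checkpoint receptor TIM-3, stood at 7823, 7852 and 5468 CPM against 2724, 3135 and 2373 CPM, a difference of −1.39 (SE 0.22, adjusted p = 0.0144). Within each of these genes the sash libraries lay close together and the wild-type libraries were more spread. Sp100, a nuclear body protein (−1.47, SE 0.23, adjusted p = 0.0144), and Oasl1, a further member of the oligoadenylate synthetase family (−1.39, SE 0.26, adjusted p = 0.0317), completed the effectors that passed. Ifit3, which acts on viral RNA, did not pass, with 948, 379 and 358 CPM against 168, 176 and 154 CPM (−1.79, SE 0.40, adjusted p = 0.0520). With the replicate block 10 of the 20 fell, as did 59 of all 775 tested genes. The count for the 20 was 9 with DESeq2 and 5 in the fit of all AOM libraries. It was 3 in the fit with the tumours and 2 with housekeeping scaling. Leaving out 1 library, it ranged from 0 without sash lesion 2 to 12 without wild-type lesion 3.

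Genes that detect nucleic acids and relay interferon signals form a separate list. Of 12 tested, 1 fell and 7 had a difference above 0, with a median of 0.05. The one that fell was Ddx58, which encodes the RNA sensor RIG-I, at 317, 248 and 269 CPM against 111, 144 and 116 CPM (−1.19, SE 0.26, adjusted p = 0.0490). Irf5, a transcription factor downstream of Toll-like receptors, did not pass at 140, 115 and 81.9 CPM against 55.5, 55.6 and 69.6 CPM (−0.91, SE 0.36, adjusted p = 0.210). Interferon genes themselves were at the edge of detection: Ifnb1 had 1 count in wild type and 0 in sash, Ifna2 had 0 in both, and Ifng had 7 and 13. Genes of the interferon-gamma response gave no call: of 14 tested by edgeR 0 passed, and 4 had an unadjusted p below 0.05, against 19.1% of all tested genes. Of all 775 tested genes 425 had a difference above 0, and all 14 of this list did, with a median of 0.51. DESeq2 and the replicate block each called 2 of them higher. Under the block these were Ido1, the tryptophan-degrading enzyme (1.74, SE 0.44, adjusted p = 0.0273), and Irf1, a factor induced by interferon-gamma (0.60, SE 0.16, adjusted p = 0.0293). Without the block their adjusted p was 0.0790 and 0.118.

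**Figure D2:**
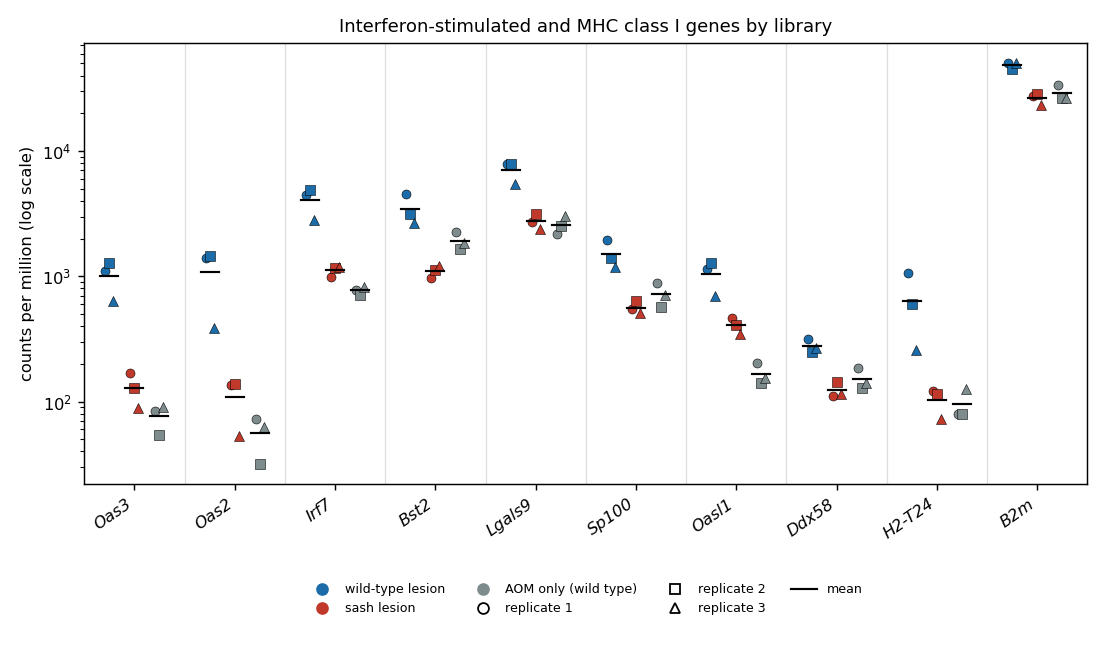
Levels in CPM on a log axis of interferon-stimulated, sensor and MHC class I genes that fell, with 1 symbol per library, shape for the replicate number and a bar at the mean of 3 libraries. Wild-type lesions (blue) lie above sash lesions (red) for each gene, and the AOM-only libraries (grey) lie at or below the sash lesions for Oas3, Oas2, Irf7 and Oasl1 by their means.

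The antigen presentation genes that passed were all lower in sash. B2m, the light chain of MHC class I, was among the most abundant transcripts at 50697, 45116 and 50434 CPM in wild-type lesions and 27406, 28615 and 23247 CPM in sash lesions (−0.91, SE 0.18, adjusted p = 0.0401). H2-T24, a non-classical class I gene, stood at 1054, 604 and 259 CPM against 122, 115 and 73.1 CPM (−2.68, SE 0.50, adjusted p = 0.0317). These were the only 2 of 18 tested class I and immunoproteasome genes that passed, and the median of the 18 was −0.12. With the replicate block 3 of the 18 fell, H2-M3, a further non-classical gene, among them (−0.69, SE 0.18, adjusted p = 0.0273). H2-K1, a classical heavy chain, stood at 9846, 9429 and 11244 CPM against 6807, 7650 and 8814 CPM and did not pass (−0.41, SE 0.18, adjusted p = 0.271).

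Among 8 tested MHC class II genes 6 had a difference above 0, with a median of 0.67, yet the one that passed fell. H2-Eb2, a class II beta chain gene, stood at 311, 142 and 123 CPM against 25.1, 18.1 and 21.2 CPM (−3.19, SE 0.48, adjusted p = 0.0144). H2-Aa, the alpha chain of I-A, stood at 7935, 3704 and 4643 CPM against 11116, 14331 and 13050 CPM, with every sash library above every wild-type library (1.21, SE 0.30, adjusted p = 0.0759). Under the replicate block H2-Aa passed (1.29, SE 0.26, adjusted p = 0.0133), as did Cd74, the invariant chain (0.97, SE 0.25, adjusted p = 0.0342). The abundant class II genes and the scarce H2-Eb2 thus had values on opposite sides of 0. How reads of near-identical copies within the H2 and Oas families were divided is not given here, and values of single members of these families are uncertain.

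Some B cell genes were lower in the sash lesions. Of 11 tested, 3 fell and all 11 had a difference below 0, with a median of −2.82. Over all 775 tested genes 18 fell and 350 had a difference below 0. Ms4a1, which encodes CD20, had 1102, 333 and 307 CPM in wild-type lesions and 78.8, 25.0 and 11.8 CPM in sash lesions, the largest fall of any tested gene (−4.02, SE 0.77, adjusted p = 0.0326). Sash lesion 3 lay near the minimum count for Ms4a1, which entered the test through its wild-type libraries, so the size of its fold is uncertain. Cd22, an inhibitory lectin of B cells, stood at 348, 138 and 92.3 CPM against 43.0, 16.7 and 14.1 CPM (−3.04, SE 0.65, adjusted p = 0.0476). Wild-type lesion 1 was the highest of the wild-type libraries in 10 of the 11 genes, and sash lesion 1 the highest of the sash libraries in 9. Over all 775 tested genes this was so in 246 and 268.

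Without wild-type lesion 1 the median of the B cell genes was −1.92 and 1 of them fell, without wild-type lesion 2 also 1 fell and without wild-type lesion 3 8 fell. Over all tested genes these fits called 13 of 788, 15 of 791 and 53 of 792 lower. Without sash lesion 2, without sash lesion 3 and in the fit with the tumours 0 of the 11 passed. The replicate block, which removes what libraries of 1 number share, called 9 of the 11 lower, and 59 of all 775 tested genes. Pax5, the transcription factor that fixes B cell identity, did not pass without the block (−3.29, SE 0.81, adjusted p = 0.0743) and passed with it (−3.17, SE 0.35, adjusted p = 1.68e-04). Cr2, the complement receptor of mature and follicular B cells, gave −2.82 (SE 0.67, adjusted p = 0.0669) without the block. Cd79a, a signalling chain of the B cell receptor, was too scarce for the test, with 15, 2 and 10 counts in wild-type lesions and 1, 0 and 0 in sash lesions, a ratio of 24.6 (exact 95% interval 4.06 to 1009, counting error only). It was 14.6 without wild-type lesion 1 and 15.7 without sash lesion 2 or 3. Without sash lesion 1, which held the 1 count, the floor of 3 counts gave 5.95.

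In the list of lymphoid follicles and homing 1 gene fell. Of 13 tested, 12 had a difference below 0, against 350 of all 775 tested genes. The median of the 13 was −1.23, and it was −0.82 without wild-type lesion 1. Cxcl13, the chemokine that draws B cells into follicles, stood at 847, 323 and 504 CPM against 87.7, 111 and 112 CPM (−2.45, SE 0.38, adjusted p = 0.0144). Cxcr5, its receptor, stood at 246, 72.7 and 47.1 CPM against 23.3, 11.1 and 4.72 CPM and did not pass (−3.31, SE 0.80, adjusted p = 0.0688). It met the minimum count only through its wild-type libraries, and its fold rests on few counts in the sash lesions. Under the block 4 of the 13 fell, Cxcr5 among them (adjusted p = 3.99e-04). Ccl19, a chemokine of the T cell zone, had 38, 9 and 30 counts in wild-type lesions and 1, 3 and 2 in sash lesions, a ratio of 11.7 (exact 95% interval 5.14 to 32.9, counting error only).

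Other lymphocyte lists gave no call without the block. None of 15 tested T cell genes passed by edgeR, and 4 had an unadjusted p below 0.05, against 19.1% of all tested genes. Their median of −0.68 was −0.07 without wild-type lesion 1, which was the highest wild-type library in 14 of the 15 and in 246 of all 775 tested genes. DESeq2 and the block each called 2 of them lower. Cd4 stood at 65.4, 47.0 and 59.3 CPM against 14.3, 27.8 and 29.5 CPM (−1.26, SE 0.41, adjusted p = 0.138), with no overlap between groups. None of 5 plasma cell genes passed, and Igkc, the kappa light chain, stood at 46996, 53312 and 80328 CPM against 27632, 42289 and 36541 CPM (−0.78, SE 0.26, adjusted p = 0.143). It passed with the block (adjusted p = 0.0147). The share of follicles caught in each tissue piece was not measured, and its part in the B cell and follicle values was not tested.

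**Figure D3:**
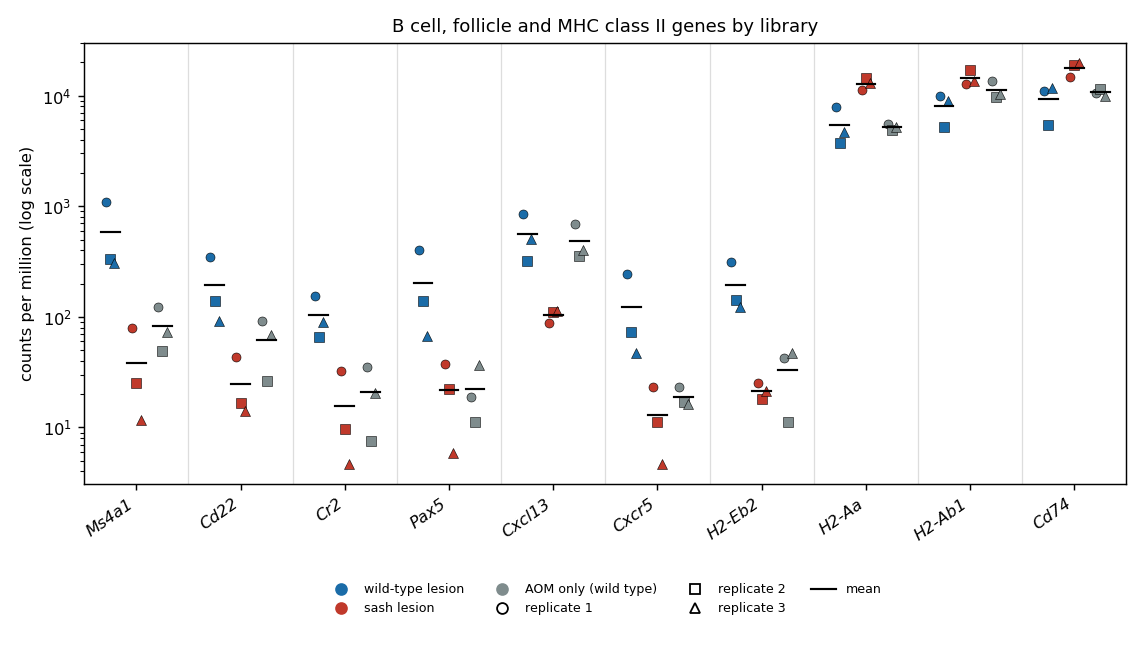
Levels in CPM on a log axis of B cell, follicle and MHC class II genes, with 1 symbol per library, shape for the replicate number and a bar at the mean of 3 libraries. Sash lesions (red) lie below wild-type lesions (blue) from Ms4a1 to H2-Eb2 and above them for H2-Aa, H2-Ab1 and Cd74, and wild-type lesion 1 (blue circle) is the highest wild-type library for Ms4a1 at 1102 CPM.

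Cxcl2 and Cxcl5, chemokines that attract neutrophils through the receptor CXCR2, were 2 of the 4 genes that rose. Cxcl2 had 3.54, 1.51 and 1.88 CPM in wild-type lesions, which is 2, 1 and 2 counts, and 19.7, 19.4 and 23.6 CPM in sash lesions, which is 11, 14 and 20 counts. The difference was 3.14 (SE 0.52, adjusted p = 0.0157). Cxcl5, a ligand made mainly by epithelium, stood at 61.9, 19.7 and 48.0 CPM against 260, 413 and 136 CPM (2.60, SE 0.52, adjusted p = 0.0401). Cxcl1 stood at 54.8, 18.2 and 21.7 CPM against 147, 333 and 111 CPM and just missed the threshold (2.62, SE 0.58, adjusted p = 0.0508), which it passed with the block (adjusted p = 0.0101). These 3 are the tested members of 8 ligand and receptor genes on the panel, so they do not speak for the list. Cxcl2 met the minimum count only through its sash libraries, and its fold rests on 1 or 2 counts in each wild-type lesion. Further ligands were too scarce for the test: Cxcl3 had 6 counts in wild type and 7 in sash, Ppbp 11 and 10, and Cxcl15 4 and 4.

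Transcripts of neutrophil receptors were scarce in both genotypes. Cxcr2 had 1 count in wild type and 2 in sash, Fpr1, the formyl peptide receptor, had 2 and 5, and Csf3r, the receptor of granulocyte colony-stimulating factor, had 13 and 18. Of 8 neutrophil genes on the panel 2 were tested and neither passed. Cd177, listed as a surface protein of neutrophils, stood at 5834, 5401 and 6862 CPM against 3895, 4251 and 3927 CPM (−0.61, SE 0.17, adjusted p = 0.101). This level lay far above those of the receptors. The cells that carried Cd177 were not identified, and its values are not a measure of neutrophil number here. With the replicate block (−0.60, SE 0.15, adjusted p = 0.0276) and with DESeq2 (adjusted p = 0.0226) Cd177 passed as lower.

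Nfkbia, the inhibitor that NF-kappaB induces against itself, had 1887, 1488 and 1530 CPM in wild-type lesions and 2909, 3280 and 2847 CPM in sash lesions (0.85, SE 0.18, adjusted p = 0.0476). It was the one of 8 tested genes of that pathway that passed, and the median of the 8 was 0.28. None of 9 tested inflammatory cytokine genes passed with edgeR, and 3 had an unadjusted p below 0.05, against 19.1% of all tested genes. Ccl2, the monocyte chemokine, gave 1.35 (SE 0.35, adjusted p = 0.0790) and Tnf gave 1.11 (SE 0.42, adjusted p = 0.203). DESeq2 called 2 of the list higher and the block 3, Ccl2 and Tnf among them (adjusted p = 0.0135 and 0.0443).

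Il18, an epithelial cytokine released by the inflammasome, stood at 3434, 2586 and 4838 CPM against 10607, 8959 and 5678 CPM (1.19, SE 0.28, adjusted p = 0.0669). Il22, which acts on epithelium in repair and defence, had 3, 1 and 2 counts in wild-type lesions and 22, 18 and 0 in sash lesions, so the higher sum rested on sash lesions 1 and 2. Its pooled ratio was 7.31 (exact 95% interval 3.08 to 21.1), 4.54 without sash lesion 1, and 11.45 without sash lesion 3. Il17a, made by the same classes of lymphocyte, had 0, 3 and 3 counts against 5, 14 and 5, a ratio of 4.38 (exact 95% interval 1.75 to 13.1), which was 2.87 without sash lesion 2. Both intervals cover counting error only and not the spread between samples.

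Edn1, which encodes the vasoconstrictor peptide endothelin-1, stood at 493, 329 and 355 CPM against 1008, 1300 and 660 CPM (1.30, SE 0.27, adjusted p = 0.0476). It was the one of 6 tested endothelial genes that passed. Of 6 tested epithelial genes 2 fell and none rose, while with the replicate block Car4, a carbonic anhydrase of colon epithelium, rose (0.79, SE 0.18, adjusted p = 0.0168), as it did with DESeq2 (adjusted p = 0.0310). Tmigd1, an adhesion molecule of epithelial cells, stood at 2172, 3489 and 1248 CPM against 372, 361 and 118 CPM (−3.07, SE 0.50, adjusted p = 0.0157). Emp1, an epithelial membrane protein, stood at 8058, 14886 and 2277 CPM against 1539, 1417 and 927 CPM (−2.74, SE 0.58, adjusted p = 0.0476). Epcam, present on all colon epithelium, stood at 24073, 25517 and 21429 CPM against 28962, 27618 and 22060 CPM, so the groups overlapped (0.12, SE 0.19, adjusted p = 0.812). The summed level of the 6 epithelial genes was 96773 to 149302 CPM in wild type and 93943 to 143869 CPM in sash.

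**Figure D4:**
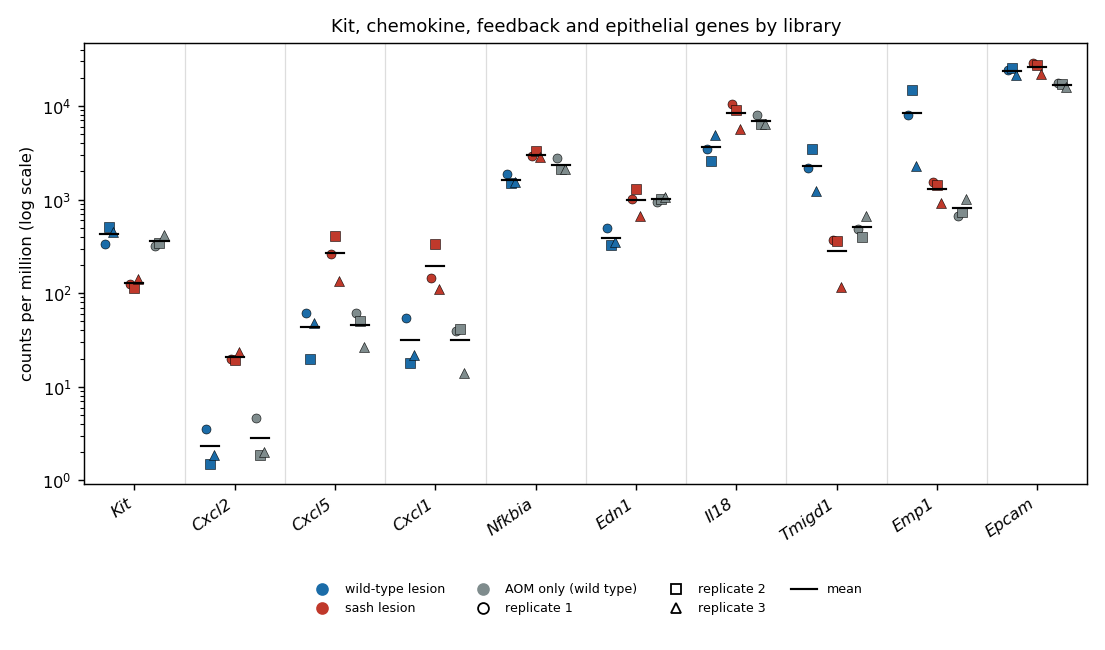
Levels in CPM on a log axis of Kit, the CXCR2 ligands, Nfkbia, Edn1, Il18 and 3 epithelial genes, with 1 symbol per library, shape for the replicate number and a bar at the mean of 3 libraries. Cxcl2 lies at 1.51 to 3.54 CPM in wild-type lesions (blue) and 19.4 to 23.6 CPM in sash lesions (red), while Epcam overlaps between them.

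Lists for other cells of the tissue gave few calls. None of 13 macrophage and monocyte genes, 6 stromal genes or 4 proliferation genes passed with edgeR. Apoe, abundant in macrophages, had the values 5482, 5102 and 3925 CPM against 2049, 3230 and 3836 CPM (−0.69, SE 0.27, adjusted p = 0.210). Ptprc, which encodes the pan-leukocyte marker CD45, stood at 707, 380 and 364 CPM against 231, 203 and 193 CPM without overlap (−1.24, SE 0.31, adjusted p = 0.0788) and passed with the block (−1.17, SE 0.24, adjusted p = 0.00984). No gene of smooth muscle or enteric nerve was on the panel. The 10 genes just outside the threshold, from Cxcl1 at 0.0508 to H2-Aa at 0.0759, all passed both with the block and with DESeq2. The remaining ones were Ifit3, Cr2, Cxcr5, Pax5, Il18, Cd52, Traf3ip3 and 5330417C22Rik, of which Il18 had a difference above 0 and the others below.

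The AOM-only libraries gave a second view of the wild-type level. Their labelled strain, age and AOM schedule match the wild-type lesions, yet 119 of 762 tested genes passed between these wild-type groups (15.6%), with 66 higher in the lesions (8.66%) and 53 lower (6.96%). The count fell to 11 without AOM-only replicate 1 and rose to 268 without wild-type lesion 3. Interferon-stimulated effectors were prominent: 14 of 20 were higher in the wild-type lesions and none lower. Oas3 stood at 84.1, 54.5 and 91.3 CPM for AOM only, a difference of 3.66, wild-type lesions minus AOM only (SE 0.32, adjusted p = 4.30e-04). Irf7 stood at 778, 711 and 828 CPM (2.34, SE 0.24, adjusted p = 4.92e-04), and Oas2 at 72.4, 32.0 and 62.9 CPM (4.24, SE 0.54, adjusted p = 0.00208). Of the effector genes that were lower in sash, all but Bst2 therefore had AOM-only levels that overlapped the sash lesions or lay below them.

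Some differences between the wild-type groups were shared by both genotypes of lesion. Irf5 stood at 4.67, 9.40 and 6.08 CPM for AOM only, below every wild-type and sash lesion (3.95, SE 0.43, adjusted p = 5.31e-04). Tnfrsf18, the T cell receptor GITR, had 88.4, 74.2 and 102 CPM in wild-type lesions, 66.2, 77.8 and 53.1 CPM in sash lesions and 7.01, 3.76 and 2.03 CPM for AOM only (4.30, SE 0.46, adjusted p = 5.20e-04). Psmb7, a proteasome subunit, stood at 5742, 4389 and 4649 CPM, 4083, 4218 and 3558 CPM, and 1458, 1322 and 1302 CPM in the same order (1.81, SE 0.18, adjusted p = 4.92e-04). Experiment and group cannot be told apart in this comparison.

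Set against all 6 wild-type libraries, 8 of the 22 genes kept the sash libraries outside the wild-type range, against 12.3% of all tested genes (6.32% higher, 5.94% lower). Since the 22 already lay beyond the 3 wild-type lesions, the closer reference is the 188 genes that did so, of which 95 (50.5%) also lay beyond all 6. The lower ones included Kit, Bst2, Cxcl13 and Tmigd1, and the higher ones were Cxcl2, Cxcl5 and Nfkbia. Cxcl13 stood at 696, 352 and 404 CPM for AOM only, and the wild-type groups gave a difference of 0.16 (SE 0.37, adjusted p = 0.789). Cxcl5 stood at 60.7, 50.8 and 26.4 CPM (−0.13, SE 0.47, adjusted p = 0.875) and Kit gave 0.21 (SE 0.21, adjusted p = 0.505). Edn1 went the other way: AOM only stood at 932, 1027 and 1077 CPM, within the sash range. Emp1 stood at 671, 741 and 1014 CPM and Tmigd1 at 481, 402 and 661 CPM, nearer to the sash than to the wild-type lesions.

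With the AOM-only libraries as the wild-type group, an alternative chosen after seeing the data, 190 of 752 genes passed (25.3%), 100 higher (13.3%) and 90 lower (12%) in sash. Kit (−1.56, SE 0.22, adjusted p = 0.00181), Cxcl13 (−2.27, SE 0.29, adjusted p = 0.00140), Bst2 (−0.86, SE 0.17, adjusted p = 0.00671) and Cxcl5 (2.47, SE 0.43, adjusted p = 0.00509) passed in the direction seen between the lesions. Irf7 (0.47, SE 0.15, adjusted p = 0.0440) and Oasl1 (1.23, SE 0.22, adjusted p = 0.00541) passed in the opposite direction. Oas3 gave 0.68 (SE 0.32, adjusted p = 0.148), and Ms4a1 gave −1.20 (SE 0.61, adjusted p = 0.169). Of the effectors that fell between the lesions, Bst2 and Sp100 (−0.42, SE 0.19, adjusted p = 0.121) kept a difference below 0 and the other 5 did not. Across the 20 effectors 5 were higher and 1 lower in sash than for AOM only, with a median of 0.32. The B cell list moved as well: 2 of 9 tested were lower, with a median of −0.78, and between the wild-type groups 5 of 11 were higher in the lesions, with a median of 1.59. Other lists gained calls, with 7 of 14 interferon-gamma response genes higher (Irf1 among them, 0.52, SE 0.13, adjusted p = 0.0192), 4 of 7 MHC class II genes higher and 5 of 10 follicle genes lower. Among 5 tested mast cell genes 3 were lower, including Kit, with a median of −1.45. The plasma cell list had 3 of 5 lower and the macrophage and monocyte list 4 of 13.

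The genotype difference was also set beside that in the tumours, where 41 of 848 tested genes passed in the joint fit (4.83%), 25 higher (2.95%) and 16 lower (1.89%). Of the 22 genes, 18 had the same sign in the tumours (81.8%), against 50.1% of all 775 genes tested in both, and 3 passed there: Kit (−1.62, SE 0.38, adjusted p = 0.0335), Cxcl2 (2.93, SE 0.50, adjusted p = 0.0109) and Nfkbia (1.00, SE 0.18, adjusted p = 0.0113). Oas3 gave −0.58 (SE 0.46, adjusted p = 0.493) in the tumours, Bst2 0.19 (SE 0.30, adjusted p = 0.743) and Ms4a1 −3.12 (SE 1.13, adjusted p = 0.127). All 7 tested CXCR2 ligand and receptor genes had a difference above 0 in the tumours and 4 rose.

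The difference between stages was itself tested. By edgeR 0 of 848 genes passed (0%), although 128 had an unadjusted p below 0.05 (15.1%), and DESeq2 called 20, 12 with a higher and 8 with a lower genotype difference in the lesions. The smallest adjusted p was 0.0611, for Lgals9, whose genotype difference was lower by 1.56 in the lesions (interaction −1.56, SE 0.31). H2-T24 followed (−2.72, SE 0.59, adjusted p = 0.0641), while Oas3 gave −2.39 (SE 0.75, adjusted p = 0.170), Kit −0.16 (SE 0.61, adjusted p = 0.919) and Cxcl2 0.23 (SE 1.04, adjusted p = 0.931). The 20 DESeq2 calls included Bst2, H2-T24, Lgals9 and Oas2. By edgeR, 10 genes passed without wild-type tumour 5, with the same 4 genes and Oas3 among them, 3 without wild-type lesion 3, with H2-T24 and Lgals9, and 1 without wild-type tumour 2, which was H2-Eb2. Whether these genes differ in their genotype effect between lesions and tumours therefore depended on the tool and on single libraries.

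**Figure D5:**
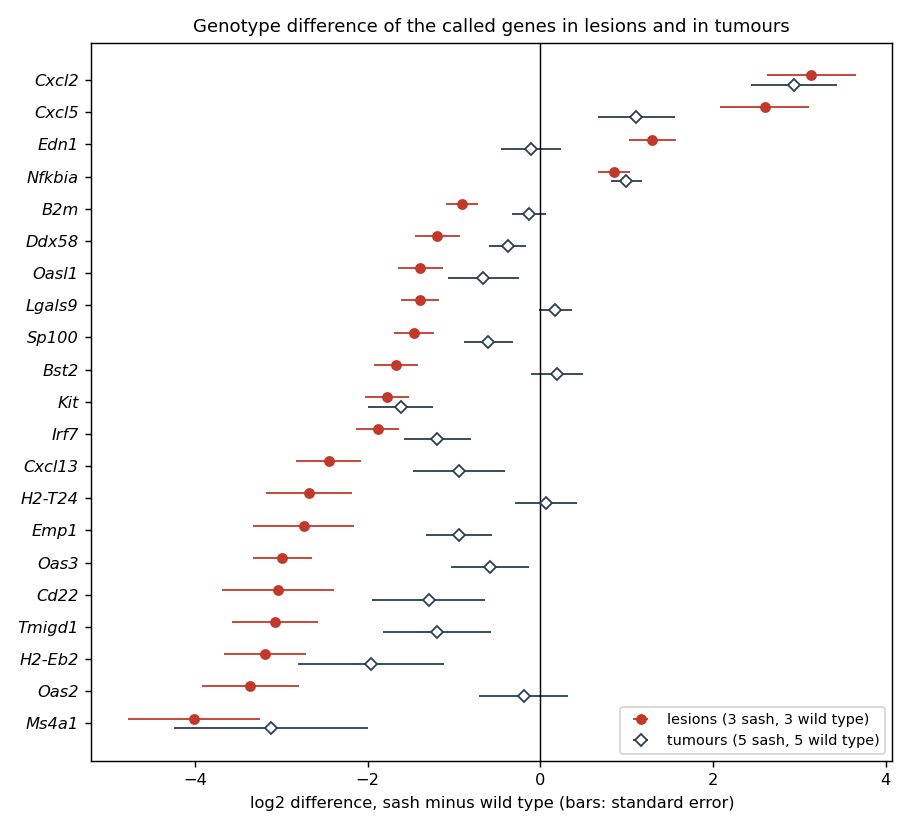
Log2 difference, sash minus wild type, of the named genes that passed, in lesions (filled circles) and in tumours (open diamonds), with bars for the standard error. Kit lies at −1.78 and −1.62, Cxcl2 at 3.14 and 2.93, and Oas2 at −3.36 and −0.19.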

How the data were processed

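The deposited values are raw whole-number counts per gene; per the labels' protocols the authors read a QIAseq Targeted RNA panel for mouse immuno-oncology. The submitters' processing notes name mm9 and DESeq2, without versions; for the aligner, the counter and any molecular tags the sources used here give nothing. Of the entries, 988 are genes and 5 are controls at 0, left out. Amplicon positions were not used here.

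Counts were tested with the edgeR 4.0.16 quasi-likelihood test (R 4.3.3, TMM scaling, filterByExpr with minimum count 10 and total 15, robust, Benjamini-Hochberg adjustment over all genes tested, threshold 0.05) on the 6 lesion libraries, on wild-type lesions and AOM only, and, for stage, on lesions and tumours together. CPM levels use TMM factors over the 25 libraries. Alternatives were DESeq2 1.42.0, RLE, upper-quartile, library-total and housekeeping scaling, no filter, wider fits, non-robust fits, a replicate block and leaving out each replicate. Genes averaging under 10 counts in both groups appear as pooled counts with exact 95% intervals or a floor of 3 counts; such genes are limited by depth.

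Deviations of lesion libraries with the same replicate number gave correlations of 0.388, 0.163 and 0.523, against −0.448 to 0.201 for different numbers. The labels do not say what a number marks, and these correlations come from the same counts. Results with the block are therefore an alternative that assumes a pairing, which was not established. On simulated data with 789 genes, the lesion test recovered 45 of 100 genes changed 2-fold and 100 of 100 changed 8-fold, with 5 false calls. The changed genes were drawn from well-counted genes only. All genes had the same spread (dispersion 0.1), without structure by replicate number. The simulation therefore does not cover scarce genes such as Cxcl2 or the measured spread of these libraries.

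Named genes are Kit, all genes that passed, up to 10 just outside the threshold and up to 6 of smallest p per list. Some genes that this rule names are not reported here. The 27 lists held 547 names, 259 on the panel. Members and lists were chosen with earlier results of these data known. Promoters are RefSeq windows on GRCm38.p6, used apart from the counts.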

Additional observations from a re-analysis of the deposited data

How the results depend on the processing

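The 22 genes that passed between the lesions kept their direction under all 16 other settings listed in the processing (352 values), and 260 of these values passed the threshold. Of the 22, 12 passed with housekeeping scaling, 13 in the fit of all AOM libraries and 5 in the fit of lesions with tumours. With the other scalings 20 to 22 passed. In all 22 the groups did not overlap, so the direction could hardly turn when the same libraries were rescaled or left out. The counts, 4 higher and 18 lower, became 16 and 54 with DESeq2, 7 and 29 without the filter on low counts, 25 and 59 with the replicate block, 0 and 5 in the fit of lesions with tumours, 2 higher with upper-quartile scaling and 8 higher in the fit of all AOM libraries. Leaving out 1 library gave 0 to 15 higher and 0 to 53 lower. For wild-type lesions against AOM only, the range was 10 to 135 higher and 1 to 133 lower. For the difference between stages, DESeq2 called 12 and 8, and leaving out 1 library gave 0 to 3 higher and 0 to 7 lower, most without wild-type tumour 5. The replicate block changed no call of that difference.

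With AOM only as the wild-type group, an alternative added after seeing the data, 100 genes were higher and 90 lower. The sign of the estimate turned for Edn1 (−0.11), Emp1 (0.61), H2-T24 (0.051), Irf7 (0.47), Lgals9 (0.026), Oas2 (0.89), Oas3 (0.68), Oasl1 (1.23), Ifit3 (0.014) and Irf5 (3.05). Of these only Irf7, Oasl1 and Irf5 passed by edgeR (adjusted p = 0.0440, 0.00541 and 0.00165). The values of Edn1, H2-T24, Lgals9 and Ifit3 were smaller than their SE (0.21, 0.31, 0.15 and 0.23), so they lay near 0. The cause of these changes was not tested.

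The median of the CXCR2 list was 0.54 without the filter, because more scarce genes enter. Leaving out 1 library, it ranged from 2.19 to 3.29, and that of the B cell list from −3.62 to −1.92. That of the follicle list ranged from −1.43 to −0.82. The fold of Cpa3 from the floor of 3 counts ranged from 3.98 to 12.8. Genes near 10 counts, Cxcl2 among them, are limited by depth.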
